A study of Danio rerio with 9 samples.

Results

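The baseline transcriptome of adult wild-type (WT) zebrafish skeletal muscle was described from the 3 WT libraries of a series of 9 RNA-seq libraries. The members were chosen by their label alone, and only their own estimated counts and TPM values (a transcript level per unit of length, scaled to a fixed library total) were used. The study examined muscle lacking *bves*, a gene for a popeye domain membrane protein, and swimming exercise in such fish, and its remaining libraries were 3 of *bves* KO and 3 of *bves* KO-EX (exercised) muscle, which entered no result here. The WT fish were 12-month-old males of the AB strain with no exercise programme. Each library, named WT-1, WT-2 and WT-3 below after its replicate number, was made from pooled muscle of 2 fish taken between the dorsal and caudal fins, so the spread between libraries is that between pools and not between single animals. Whenever 3 values are given in a row, they belong to WT-1, WT-2 and WT-3, and ± marks the SD over these 3 libraries.

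The trunk muscle of teleosts is mostly fast, white, glycolytic muscle, with a thin superficial layer of slow, red, oxidative fibres along the flank. Contraction runs on thick filaments of myosin and thin filaments of actin, tropomyosin and troponin, is switched by calcium released through ryanodine receptors and taken up again by SERCA pumps, and in fast fish muscle is also shaped by parvalbumins, small soluble calcium buffers. The teleost lineage underwent an additional whole-genome duplication, which left many zebrafish genes as a/b pairs of co-orthologues, and either copy can take over expression in a tissue.

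The libraries held 18499763, 17422188 and 18860779 estimated counts over 32520 listed genes. A count above 0 in any library was found for 22522 genes. A mean of at least 1 TPM, taken as detection here, was reached by 10225 genes, of which 8314 were at or above 1 TPM in all 3 libraries. WT-2 had fewer genes at 1 TPM than the others, with 10740 in WT-1, 8770 in WT-2 and 10397 in WT-3. There were 1485 genes under 1 TPM in WT-2 alone, against 111 in WT-1 alone and 232 in WT-3 alone.

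The labelled tissue was checked against marker genes of 18 cell types. Fast fibre markers summed to 47803, 66460 and 47312 TPM and slow fibre markers to 4283, 1385 and 5544 TPM, so both fibre types were present and fast genes held most of the signal. The heart genes *myl7*, *nppa*, *nppb* and *cmlc1* had 0 counts in all 3 libraries, which allows at most 3 counts in a library, and *myh6* had 8, 7 and 16 counts, or 0.07, 0.06 and 0.13 TPM. Markers of testis, ovary and exocrine pancreas summed to at most 1.00 TPM in any library, and those of liver to at most 2.91 TPM. Markers of blood, nerve and immune cells were found at unequal levels. The blood haemoglobin gene *hbba1* summed to 803, 902 and 675 TPM over its 2 rows, *mbpa*, encoding myelin basic protein, had 96.5, 85.5 and 84.7 TPM, and *cd74a*, an antigen presentation gene of leukocytes, had 97.5, 100.3 and 93.4 TPM. Other leukocyte markers were far lower, with *ptprc* at a mean of 2.18, *mpeg1.1* 1.52, *mpx* 0.57 and *lck* 0.07 TPM, and *lyz* at 3.26, 5.85 and 29.8 TPM. The glial genes *mpz* and *plp1b* averaged 34.9 and 20.3 TPM, but the neuron genes *elavl3* and *snap25a* only 0.02 and 0.50 TPM. Skin markers had summed levels of 146, 46.7 and 72.5 TPM, highest in WT-1.

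RNA of adult muscle was concentrated in very few genes. The 20 most abundant genes of each library held 47.0, 47.8 and 49.9% of its TPM, and 23 genes were enough for 50% of the mean TPM and 456 for 90%. The mean reached 1000 TPM for 150 genes and 100 TPM for 510. Of the 20 leading genes in each library, 16 were shared by all 3, and of the leading 100, 75 were shared.

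The gene with the highest mean TPM was *mt-co2*, a mitochondrially encoded subunit of cytochrome c oxidase, at 53871, 46049 and 53624 TPM. The calcium buffer *pvalb4* followed with 37604, 54762 and 49056 TPM and led in WT-2. By mean estimated counts, which favour long transcripts, *ckmb* led, though *mt-co1* was ahead of it in WT-3. The muscle creatine kinase *ckmb*, which regenerates ATP from phosphocreatine, had 39354, 42495 and 37892 TPM. Its CV of 5.89% in TPM was below the 8.69% of *mt-co2*, but in scaled counts it was 32.3% against 17.1%. The plot of the 20 leading genes holds 8 mitochondrially encoded genes, 6 filament genes, 4 energy enzymes and 2 parvalbumins. The other mitochondrial members were *mt-co1*, *mt-co3*, *mt-cyb*, *mt-nd3*, *mt-atp6*, *mt-atp8* and *mt-nd4l*. Of these, *mt-atp8* ranked there in deposited TPM on only 372, 307 and 692 counts. The other nuclear members were *nme2b.2*, a nucleoside diphosphate kinase, at 30775 ± 4688 TPM, *ckma* at 27895 ± 2124 TPM, *pvalb3* at 21666 ± 5495 TPM, *actc1b* at 18152 ± 1312 TPM, *gapdh* at 16256 ± 2740 TPM, *tpma* at 15802 ± 1863 TPM, *mylpfa* at 15042 ± 2413 TPM, *tnnt3b* at 13012 ± 1704 TPM, *myhz2* at 11323 ± 4195 TPM and *tnni2a.3* at 10728 ± 3347 TPM.

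**Figure D1:**
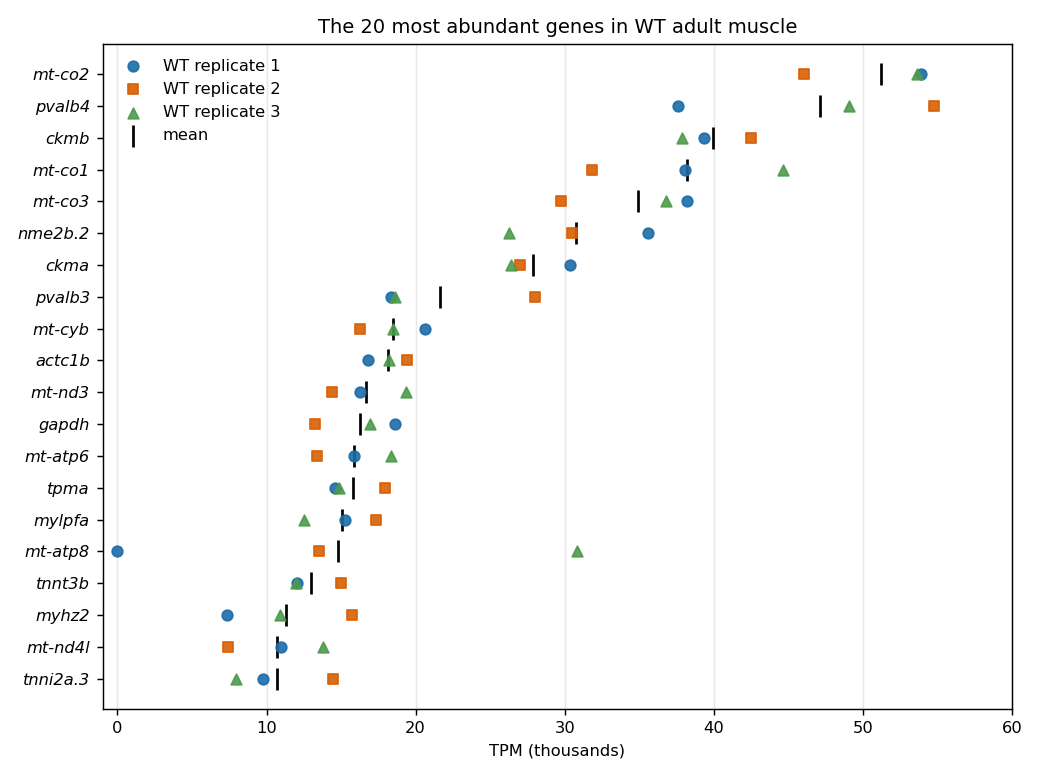
TPM, drawn in units of 1000 (horizontal axis), of the 20 genes with the highest mean TPM, with 1 symbol per WT library and a black tick at the mean. *mt-co2* leads at a mean of 51181 TPM, and *mt-atp8* is listed at 0 TPM in WT-1 and at 30830 TPM in WT-3.

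Grouped by function, 5 classes held most of the RNA in every library. Mitochondrially encoded genes took 22.2, 19.4 and 27.0% of TPM, cytosolic ribosomal protein genes 15.2, 19.4 and 11.3%, sarcomere genes 12.7% ± 1.09, parvalbumins 6.11, 9.87 and 7.54%, and creatine and adenylate kinases 7.82, 7.81 and 7.35%. The kinase class varied least between libraries and the ribosomal class most among these 5. The stacked shares by class show that all genes outside the 10 classes drawn made up 24.8, 19.6 and 21.9%.

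**Figure D2:**
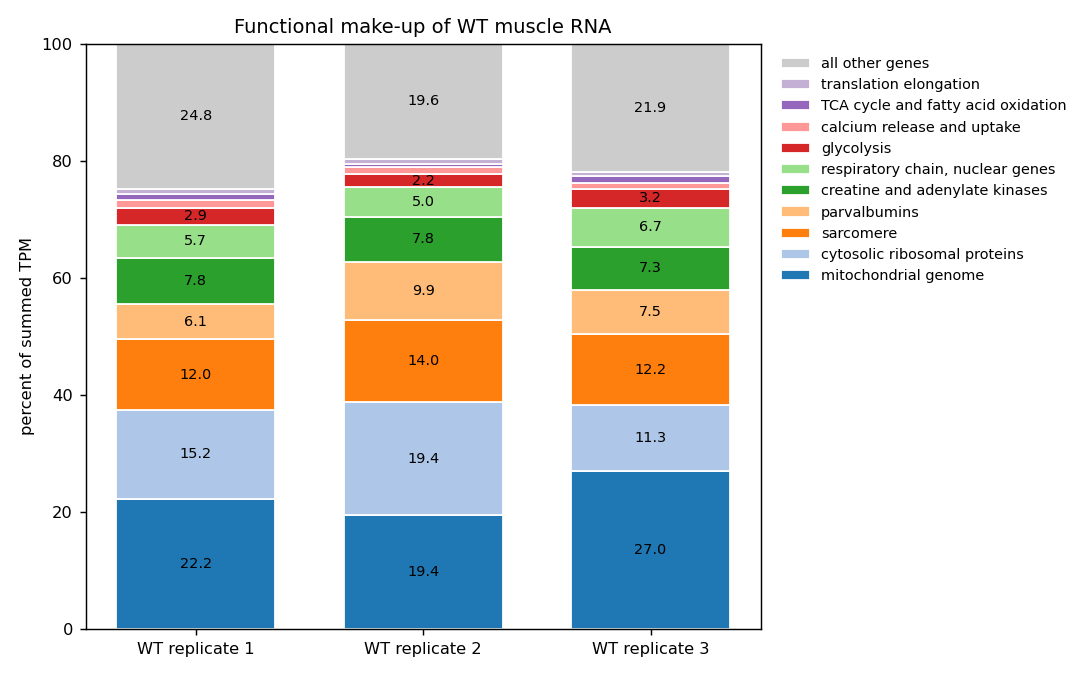
Percent of the summed TPM (vertical axis) held by 10 gene classes without shared members and by all other genes, for each WT library. The mitochondrial genome takes 22.2% in WT-1, 19.4% in WT-2 and 27.0% in WT-3, and equals the ribosomal class to 3 digits in WT-2.

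All 13 protein-coding genes of the mitochondrial genome, which encode core subunits of respiratory complexes I, III, IV and of ATP synthase, were detected. Complex IV led, with *mt-co2*, *mt-co1* and *mt-co3* as the 3 highest genes, and the *mt-nd5* subunit of complex I was the lowest at 2707, 1765 and 3044 TPM. The shortest genes need care. *mt-atp8*, an ATP synthase subunit with a listed length of 165 bases, was listed at 0, 13550 and 30830 TPM but had 372, 307 and 692 estimated counts, so its reads were present in all 3 libraries. Its TPM in WT-2 and WT-3 was also high for so few counts. *mt-nd6*, of 519 bases, had 14282 and 22970 counts there at 2951 and 4901 TPM. The rank of *mt-atp8* therefore rests on its deposited TPM alone. The TPM of *mt-nd4l*, of 297 bases, was also high for its 6168, 4849 and 8429 counts, at 10975, 7437 and 13783 TPM. *mt-nd3*, of 351 bases, had 16259, 14368 and 19347 TPM on 20436, 20429 and 26053 counts. The longer *mt-nd1*, of 975 bases, had 95519, 98245 and 123041 counts at 6970, 6653 and 8517 TPM. Without *mt-atp8* the mitochondrial share was 22.2, 18.1 and 23.8%. As a share of estimated counts, with no correction for length, the same 13 genes held 14.5, 13.6 and 16.2%.

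Nearly all nuclear genes of the respiratory chain were detected. Of the complex I genes 39 of 41 were detected and held 1.55% ± 0.205 of TPM, led by *ndufa4l*, *ndufa1* and *ndufa2*. Complex II (4 of 5 detected) was the smallest at 0.0634% ± 0.0174 and is encoded by nuclear genes alone, led by *sdhc*, *sdha* and *sdhdb*. Complex III (9 of 9 genes, led by *uqcrq*, *uqcrb* and *cyc1*) held 0.492% ± 0.0753, complex IV (18 of 18, led by *cox6a2*, *cox7c* and *cox6c*) 1.74% ± 0.215, and complex V (19 of 19, led by *atp5mc3b*, *atp5f1b* and *atp5f1e*) 1.96% ± 0.328. The muscle-type subunit *cox6a2* stood at 2409, 2520 and 3256 TPM, far above its widely expressed counterpart *cox6a1* at 48.8, 50.6 and 59.1 TPM, with no overlap between the genes. The carriers that move adenine nucleotides across the inner membrane were also abundant. *slc25a5* had 10771, 5418 and 13384 TPM and *slc25a4* 2702, 3233 and 3608 TPM, so WT-2 was the lowest library for *slc25a5* but not for *slc25a4*.

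Rapid ATP supply from phosphocreatine and glycolysis was carried by a handful of genes. *ckmb* and *ckma* together averaged 67808 TPM, and *ak1*, the adenylate kinase of the same list, had 4187, 4825 and 4197 TPM. The mitochondrial creatine kinases *ckmt2a* and *ckmt2b* were lower, at 1459, 1564 and 2557 TPM and at 864, 651 and 918 TPM. The brain-type genes *ckba* and *ckbb* averaged 8.67 and 2.26 TPM. Glycolysis genes (24 of 35 detected) held 2.74% ± 0.492 of TPM, and *gapdh* alone accounted for most of it at 18602, 13246 and 16921 TPM, before the aldolase *aldoaa* at 3338, 2777 and 5183 TPM and the muscle enolase *eno3* at 2459, 2078 and 2937 TPM. Glycogen metabolism (22 of 25 detected) was led by the muscle glycogen phosphorylase *pygma* at 205, 168 and 309 TPM, then *pgm1* and *gyg1b*. Lactate dehydrogenase was split between *ldha* at 243, 303 and 387 TPM and *ldhba*, the heart and slow muscle type, at 344, 78.7 and 457 TPM. *ldha* was the higher of the pair in WT-2 and *ldhba* in the other libraries.

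Myosin heavy chain RNA of the thick filament came mainly from 3 genes. Of the TPM of sarcomeric heavy chains, *myhz2* held 50.1, 79.4 and 58.4%, *myhz1.1* 27.7, 8.73 and 18.2%, and *myhc4* 11.6, 9.67 and 12.5%. By TPM *myhz2* ranked first in all libraries, whereas by estimated counts *myhz1.1* was ahead in WT-1 with 333960 against 288530. *myhz2* and *myhc4*, of 5939 and 5906 listed bases, averaged 460910 and 232970 counts at 11323 and 1983 TPM. Their gap was thus wider in deposited TPM than in counts, at near-equal listed length. The level of *myhz2* was 7342 TPM in WT-1, 15704 TPM in WT-2 and 10924 TPM in WT-3. The tandem copies *myhz1.2* and *myhz1.3* averaged 1.35 and 1.06 TPM. Counts of all these genes were partly non-whole, which marks reads shared out between genes. With which genes is not given, so the division between the heavy chain genes is an estimate.

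The other filament families each had 1 or 2 leading genes. Myosin light chains (2.94% ± 0.375 of TPM, 12 of 15 detected) were led by the fast regulatory chain *mylpfa* at 15272, 17332 and 12522 TPM, *mylz3* at 7929, 12884 and 9171 TPM and *myl1* at 1925, 1988 and 1485 TPM. Among the alpha-actin genes, *actc1b* held 92.7, 96.6 and 94.9% of the family and *actc1c* 5.22, 1.48 and 4.55%. The name of *actc1b* refers to cardiac actin, yet the heart markers above were at or near 0. Tropomyosin was mostly *tpma* at 14593, 17947 and 14866 TPM, followed by *tpm2* and *tpm3*. Troponins (3.20% ± 0.469, 19 of 24 detected) comprised the fast troponin T *tnnt3b* at 12059, 14978 and 11998 TPM, the fast troponin I *tnni2a.3* at 9763, 14452 and 7969 TPM and the fast troponin C *tnnc2* at 3311, 5628 and 3313 TPM. For each of these 3 genes WT-2 was the highest library.

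Large scaffold proteins took far less RNA per length. Giant and thick filament accessory genes held 0.556% ± 0.0546, led by nebulin (*neb*), a giant protein of the thin filament, at 1228, 1055 and 1176 TPM, *smyd1a*, a methyltransferase needed for thick filament assembly, and *mybphb*. The titin gene *ttn.1* stood at 617, 551 and 585 TPM, a narrow range. Z-disc genes (28 of 30 detected) held 0.583% ± 0.0666, led by *ldb3b* at 1429, 1443 and 1388 TPM, *actn3b* at 1575, 1018 and 981 TPM and *tcap* at 1109, 381 and 1338 TPM. The low *tcap* value belonged to WT-2.

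Among calcium handling genes, parvalbumins held the larger share of TPM, at 7.84% against 1.22% for release and uptake genes. As a share of estimated counts they averaged 3.35% against 3.62%, and were the larger in WT-2 only. Parvalbumin RNA came from 5 of 9 genes, *pvalb4* with 61.4% ± 5.002 of the family, *pvalb3* with 28.03% ± 2.75, and *pvalb2*, *pvalb1* and *pvalb7* with the remainder, while *pvalb5*, *pvalb6*, *pvalb8* and *pvalb9* averaged at most 0.167 TPM. The list of release and uptake genes (1.22% ± 0.145, 25 of 31 detected) was led by the SERCA genes *atp2a1l*, *atp2a1* and *atp2a2a*. *atp2a1l* alone had 10547, 9768 and 7123 TPM, or 86.6, 95.2 and 73.9% of SERCA TPM. The store protein calsequestrin came from *casq1a* at 269, 296 and 344 TPM and *casq1b* at 217, 145 and 183 TPM.

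Release channels were far below the pump. *ryr1b* had 88.4, 83.5 and 80.8 TPM, *ryr3* 49.4, 39.7 and 37.1 TPM and *ryr1a* 14.5, 3.31 and 18.88 TPM. The lead of *ryr1b* over *ryr3* rests on deposited TPM. At listed lengths of 15237 and 14964 bases, *ryr1b* had 11854, 11854 and 11379 counts and *ryr3* 14141.9, 13485.5 and 11358.1. In zebrafish, *ryr1a* is known from slow and *ryr1b* from fast muscle, and the low *ryr1a* value was that of WT-2. The voltage sensor subunit *cacna1sb* held 88.7, 95.4 and 76.9% of its pair with *cacna1sa*. Genes of excitability and of the motor endplate (12 of 18 detected) held 0.0172% ± 0.0041, led by the acetylcholine receptor genes *chrne* and *chrna1* and the potassium channel gene *kcna7*. The adult receptor subunit *chrne* had 30.7, 26.8 and 32.8 TPM and the embryonic subunit *chrng* 0.33, 0.27 and 0.57 TPM.

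All 83 cytosolic ribosomal protein genes of the list were detected, and together they held 15.3% ± 4.05 of TPM but 6.89% of estimated counts. The leading members of the list were *rps2* at 4287, 4742 and 3055 TPM, *rpl34* at 3870, 4961 and 2697 TPM and *rplp0* at 3873, 4160 and 3055 TPM. A gene that the list by symbol did not take in, *si:dkey-151g10.6*, was higher at 8286, 11621 and 6166 TPM. It led the deposited GO term structural constituent of ribosome. Elongation factors held 0.828% ± 0.135, led by *eef1a1l1*, *eef1g* and *eef1da*.

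TCA cycle and fatty acid oxidation genes held less of the TPM than glycolysis genes (2.74%) or creatine and adenylate kinases (7.66%). Nuclear respiratory chain genes held 5.81% and mitochondrially encoded genes 22.9%. TCA cycle genes (22 of 26 detected) held 0.784% ± 0.181, of which *idh2*, the mitochondrial NADP-dependent isocitrate dehydrogenase, contributed 47.1% at 3759, 2945 and 4243 TPM, followed by *mdh2* and *pdhb*. Fatty acid oxidation genes (24 of 26) held 0.175% ± 0.0674, led by *acadm* at 439, 233 and 561 TPM, *etfb* and *acadvl*. Fatty acid binding and lipid droplet genes (11 of 28) held 0.0747% ± 0.0153, led by *fabp3*, *fabp11a* and *lpl*. Oxygen-binding genes (6 of 19) were led by myoglobin (*mb*) at 1379, 288 and 1005 TPM and by the haemoglobin genes *hbba1* and *hbaa1*.

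Structural and regulatory lists were small. Collagens and matrix (42 of 84 detected) held 0.0444% ± 0.00826, led by *sparc*, *dcn* and *postnb*. The dystrophin complex and membrane list (32 of 38) held 0.0915% ± 0.0125, led by the caveola genes *cavin4a*, *cavin4b* and *cav3*, with *dmd* at 64.5, 34.6 and 40.5 TPM. *bves* itself, the gene targeted elsewhere in the study, stood at 26.9, 23.05 and 27.0 TPM and ranged 1.37-fold in scaled counts, and its relative *popdc3* had 3.55, 3.28 and 4.99 TPM. Heat shock genes (71 of 90) held 0.241% ± 0.0619, led by *hspb6*, *hspb9* and *hspa8*. Ubiquitin ligase and proteasome genes (58 of 61) held 0.198% ± 0.0996, led by *psmb4*, *psmb1* and *psmb7*.

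Transcription factor lists were detected at low levels. Myogenic factors (17 of 24) held 0.0248% ± 0.00456, led by *mef2ca*, *mef2aa* and *mef2cb*, with *myod1* at 25.1, 21.3 and 20.3 TPM and *myog* at 19.5, 7.43 and 8.35 TPM. The satellite cell genes *pax7a* and *pax7b* averaged 0.30 and 0.37 TPM. Of the other markers of that cell type, *myf5* had 3.95, 5.36 and 4.78 TPM. *met* had 8.56, 7.59 and 0.30 TPM on 9.8, 3.92 and 25 counts. Immediate early genes (25 of 37) held 0.0291% ± 0.00627, led by *nr4a1* at 75.3, 74.4 and 129 TPM, *jun* and *dusp1*. Clock genes (23 of 39) held 0.0141% ± 0.00424, led by *tefa*, *cry3b* and *nr1d2a*.

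The deposited annotation was then summed in the same way. KEGG pathways were given for 11347 genes holding 81.4% of TPM, and GO terms for 27190 genes holding 98.7%. Oxidative phosphorylation was the largest pathway at 28.0, 24.6 and 33.8% of TPM, and the Ribosome pathway held 16.2% ± 4.21. Several large pathways owed their rank to a few muscle genes that their names do not call to mind. Cardiac muscle contraction held 26.7% ± 1.31, led by *mt-co2*, *mt-co1* and *mt-co3*. Arginine and proline metabolism held 7.26% ± 0.235, of which *ckmb* gave 55.6%, and the Drug metabolism pathway for other enzymes held 3.84% ± 0.517, of which *nme2b.2* gave 81.1%. The Salmonella infection pathway held 4.06% ± 0.362, of which *gapdh* gave 40.5%. Among GO terms, mitochondrial inner membrane came first at 26.4% ± 3.84, and calcium ion binding held 10.5, 14.8 and 11.6%, led by *pvalb4* and *pvalb3*.

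Dominance between a/b copies was measured next. The symbols and descriptions gave 2697 pairs, of which 948 had a summed mean of at least 5 TPM. In 323 pairs (34.1%) 1 member held at least 90% of the pair in every library. In 146 pairs (15.4%) the higher member averaged under 60%, and 479 pairs lay between these classes. The median share of the higher member was 84.0%, and its median range between libraries was 5.56 percentage points. That median takes in the dominated pairs, whose shares cannot move far by their definition. The a copy led in 169 of the dominated pairs and the b copy in 154. In 46 dominated pairs the lower member was at 0 TPM in all libraries. The pair rule reads letters only, and so also takes in a few factors such as *eif5a* and *eif5b* that are distinct translation factors and not copies.

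The 10 most abundant dominated pairs lay in contraction, energy supply and translation. *mylpfa* had 15272, 17332 and 12522 TPM against 0.30, 0.09 and 1.23 TPM for *mylpfb*. *tnnt3b* had 12059, 14978 and 11998 TPM while *tnnt3a* was at 0.06, 0 and 0.06 TPM with 1, 0 and 1 counts. *tnnc1b*, slow troponin C, stood at 1189, 446 and 1405 TPM and *tnnc1a*, the cardiac copy, at 0 TPM in every library. In each of these pairs the lower copy was near or at 0 in all 3 libraries. The phosphate carrier *slc25a3b* and cytochrome c *cycsb* held 100% of their pairs to the nearest percent, at means of 1548 and 1010 TPM. *mybphb* held 98.5% of its pair on average, *faua* 99.2%, *rps8a* 96.2%, *smyd1a* 93.9% and the ATP synthase subunit *atp5mc3b* 93.2%.

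Balanced pairs were also found among the most abundant genes. *ckmb* and *ckma* were the leading pair of all, with *ckmb* at 56.5, 61.2 and 59.0%. Counts of both were partly non-whole, so some reads were shared out, with which genes is not given. The ribosomal genes *rpl5b* and *rpl5a* were also near parity, with *rpl5b* at 53.3, 51.1 and 52.9% and no sign of shared reads in their counts. Further balanced pairs were *atp5if1a* and *atp5if1b*, *uqcrc2a* and *uqcrc2b*, *ndufab1b* and *ndufab1a*, *mdh1ab* and *mdh1aa*, *ppiaa* and *ppiab*, *aimp1b* and *aimp1a*, *got2a* and *got2b*, and the muscle phosphofructokinases *pfkma* and *pfkmb*. Of these, *mdh1ab* exceeded its copy in WT-2 and WT-3 but not in WT-1, with shares of 40.8, 67.4 and 58.2%. In 97 of the 948 pairs (10.2%) the higher member was not the same in every library.

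**Figure D3:**
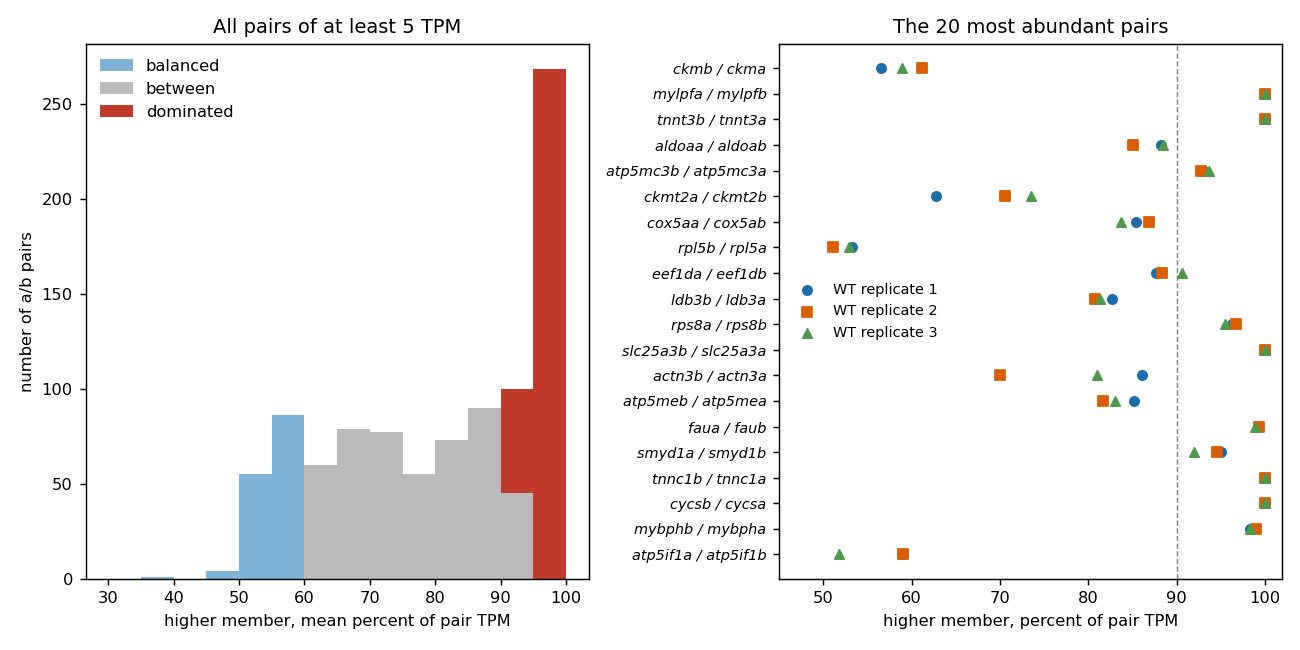
Left, number of a/b pairs with a summed mean of at least 5 TPM by the mean share of the higher member (horizontal axis, percent of pair TPM), coloured by class. Right, the share of the higher member in each WT library for the 20 most abundant pairs, with the 90% limit dashed. Of 948 pairs, 323 were dominated.

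Pairs between these classes included *aldoaa* over *aldoab* at 88.2, 85.1 and 88.5%, *cox5aa* over *cox5ab* at 85.4, 86.9 and 83.7%, *eef1da* over *eef1db* at 87.7, 88.3 and 90.6%, *ldb3b* over *ldb3a* at 82.7, 80.8 and 81.3%, and *atp5meb* over *atp5mea* at 85.2, 81.7 and 83.0%. Their proportions moved by a few percentage points only. *ckmt2a* over *ckmt2b* ran at 62.8, 70.6 and 73.6% and *actn3b* over *actn3a* at 86.1, 70.0 and 81.0%. Counts of the *actn3* pair included shared reads.

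Spread between the 3 libraries was measured on counts scaled by TMM, which sets the scale by the bulk of genes. The common biological coefficient of variation (BCV, the spread beyond counting error) was 0.288 over 12280 genes. Log2 CPM correlated between pairs of libraries at r of 0.947 to 0.963 across these genes, which is a description across genes of libraries sharing 1 reference annotation. WT-2 and WT-3 were the least alike, with 14.3% of genes more than 2-fold apart, against 9.13% for WT-1 and WT-2 and 7.80% for WT-1 and WT-3. In scaled counts the median CV was 22.7% for genes of 1 to 10 TPM, 22.4% for 10 to 100 TPM, 26.9% for 100 to 1000 TPM and 44.4% for the 150 genes of at least 1000 TPM, where counting error alone would give 0.718%. Without the listed ribosomal protein genes the last group had 84 genes and a median of 27.0%. In deposited TPM the medians were 34.2%, 27.8%, 23.8% and 24.7% from the lowest group to the highest, so the spread did not grow with level there.

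The choice of scale mattered for WT-2. Under TMM the median gene differed by -0.01 in log2 between WT-2 and WT-1, whereas in deposited TPM it was lower in WT-2 by a log2 value of -0.68 against WT-1 and -0.53 against WT-3. Ribosomal, parvalbumin and several fast filament genes took more of that library, while the fast genes *atp2a1* at 1061, 380 and 1760 TPM and *myhz1.1* were lowest there. Directions below are therefore given relative to the bulk of genes, and hold in TPM as well unless stated.

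Slow fibre genes were low in WT-2. All 8 detected slow markers were lowest in WT-2 and highest in WT-3 under all 4 scalings tried (TMM, total counts, DESeq2 size factors and TPM). Of all detected genes, 36% were lowest in WT-2 and 34% highest in WT-3 by TMM, and 72% and 36.4% by TPM. Their scaled counts in WT-2 were 0.303 to 0.721 of those in WT-1 and 0.197 to 0.476 of those in WT-3. The slow myosin *smyhc3* had 472, 129 and 649 TPM, *myl10* 997, 405 and 1308 TPM and the slow SERCA gene *atp2a2a* 560, 106 and 754 TPM. For each of them WT-1 and WT-3 lay nearer to each other than to WT-2.

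Within families the same was seen. The genes *smyhc1* to *smyhc3* made up 10.1, 2.05 and 10.7% of sarcomeric heavy chain TPM, *tnnc1b* 26.4, 7.34 and 29.8% of troponin C, *myl10* 6.13, 2.28 and 9.46% of regulatory light chain, *tpm3* 3.41, 0.735 and 3.42% of muscle tropomyosin, and *tnnt1* with the *tnnt2* genes 8.25, 1.92 and 10.1% of troponin T. Myoglobin, *ldhba*, *ryr1a* and *tcap* were low in the same library. All 5 endothelial markers were lowest in WT-2 as well under all 4 scalings. That library was the lowest for 36% of all detected genes by TMM, 72% by TPM and 6609 of 10225 by total counts. The endothelial markers summed to 54.3, 23.1 and 47.7 TPM, led by the receptor gene *kdrl* at 25.5, 8.79 and 19.4 TPM. Their part in the slow fibre result was not tested. Fewer slow fibres in a pool and less slow-type RNA per fibre cannot be told apart in bulk muscle.

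**Figure D4:**
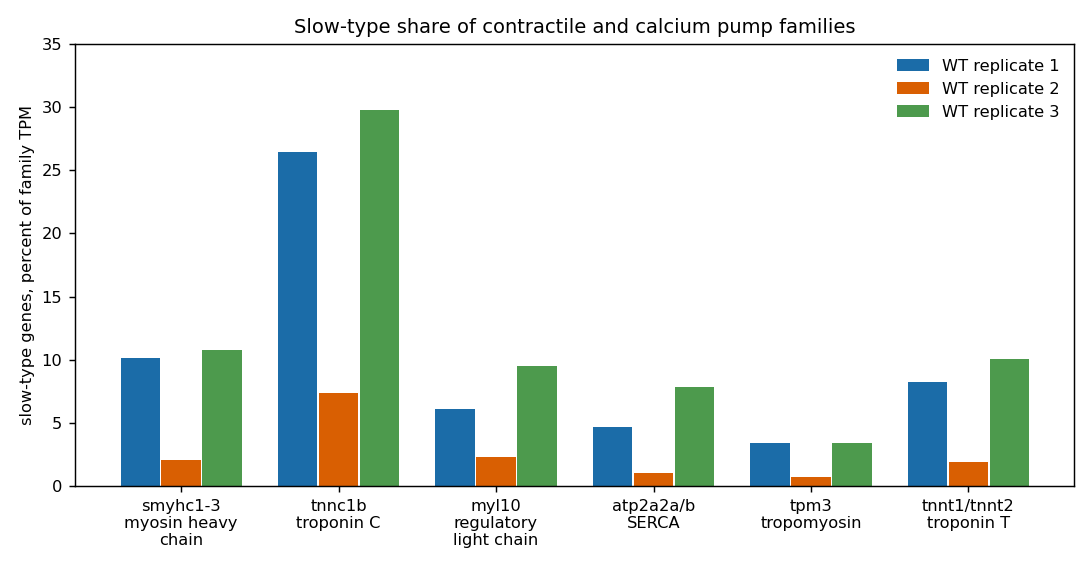
Share of slow-type genes in the TPM of each of 6 families (vertical axis, percent), with 1 bar per WT library. WT-2 is the lowest in every family, for example 2.05% of myosin heavy chain against 10.1% in WT-1 and 10.7% in WT-3.

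Fast-type calcium buffers moved the other way. *pvalb1* had 985, 6112 and 1840 TPM and *pvalb2* 1518, 7428 and 2495 TPM, so WT-2 stood far above both others. The more abundant *pvalb3* and *pvalb4* ranged less. All 5 detected parvalbumins were highest in WT-2 in scaled counts, though the smallest ratio of WT-2 over WT-3 among them was 1.02. In TPM 4 of 5 were highest in WT-2, while *pvalb7* was lowest there, at 1839, 1507 and 2465 TPM. Of all detected genes, 36.7% were highest in WT-2 by TMM and 8.08% by TPM. The balance of *myhz2* and *myhz1.1* also differed. Of their joint TPM *myhz2* held 64.4, 90.1 and 76.3%, and their counts included shared reads.

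Ribosomal protein genes moved as a block. All 83 of the list were lowest in WT-3 under all 4 scalings, and 83 were highest in WT-2 in scaled counts and 82 in TPM. The median member was 2.09-fold higher in WT-2 than in WT-1 and 2.58-fold higher than in WT-3, with a range over members of 1.39 to 3.32 for the second ratio, all by TMM. In TPM the median log2 ratios were smaller, at 0.36 and 0.80 against 1.06 and 1.37 by TMM. Of all detected genes, 36% were lowest in WT-3 by TMM and 20.4% by TPM.

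Proteasome genes marked WT-1. Of 43 detected subunits, 35 were highest in WT-1 in scaled counts and 39 in TPM, and the median subunit was 1.94-fold higher in WT-1 than in WT-3. Of all detected genes, 29.3% were highest in WT-1 by TMM and 55.6% by TPM, so the count in TPM stands against a raised background. *psma5*, a core subunit, had 149, 48.8 and 45.4 TPM. The muscle ubiquitin ligase gene *trim63a* stood at 120, 10.4 and 17.5 TPM, whereas its copy *trim63b* had 101, 77.8 and 91.5 TPM. *trim63a* thus differed between pools and *trim63b* little. Skin markers were also highest in WT-1, and their part in these values was not tested.

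Fatty acid oxidation and TCA cycle genes were high in WT-3, while their lowest library depended on the scaling. For the mitochondrial genes and complex I both the highest and the lowest library depended on it. Fatty acid oxidation genes were highest in WT-3 for 23 of 24 under all 4 scalings, and TCA cycle genes for 17 to 20 of 22, against 34% of all detected genes by TMM and 36.4% by TPM. The median log2 ratio of WT-1 over WT-3 was -0.38 by TMM and -0.25 by TPM for the 13 mitochondrial genes and -0.41 and -0.25 for complex I. By TMM, WT-2 was the highest library for 7 of 13 mitochondrial and 27 of 39 complex I genes, against 36.7% of all detected genes. By TPM, WT-3 was the highest for 10 and 33 of them, against 36.4%. Of the mitochondrial genes 12 were lowest in WT-1 by TMM but 12 were lowest in WT-2 by TPM. Complex I genes gave 34 of 39 lowest in WT-1 by TMM and 11 by TPM, where 28 were lowest in WT-2. Of all detected genes, 28% were lowest in WT-1 by TMM and 7.51% by TPM, and 72% were lowest in WT-2 by TPM, so the complex I count there lay at the level of all genes.

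**Figure D5:**
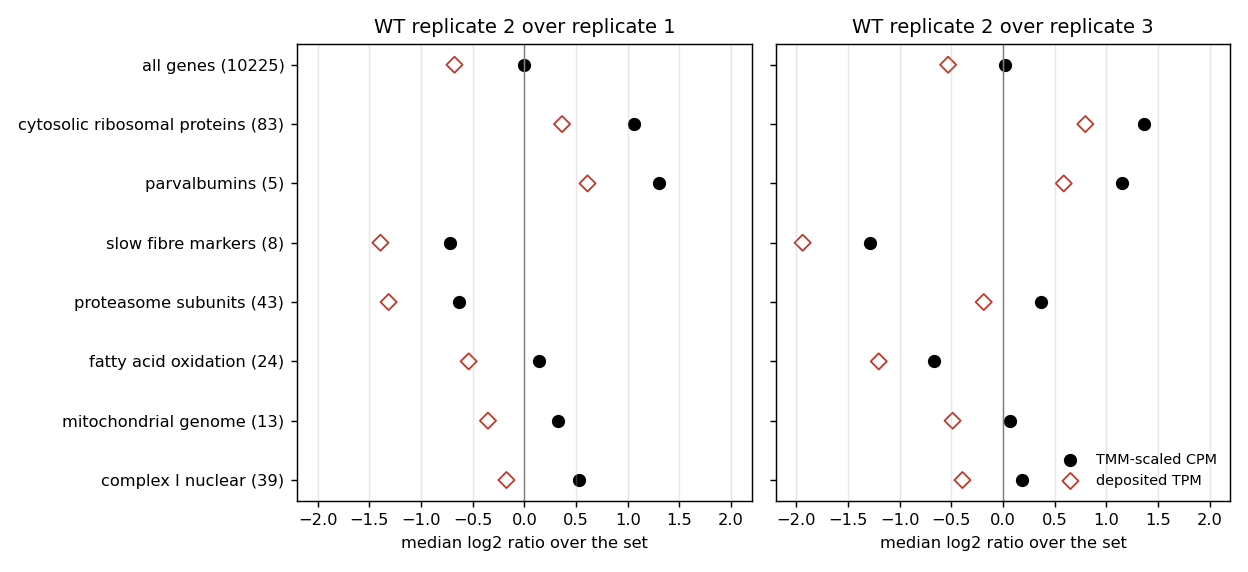
Median log2 ratio (horizontal axis) of WT-2 over WT-1 (left) and over WT-3 (right) for 8 gene sets, with the number of detected genes in brackets, from TMM-scaled CPM (black points) and deposited TPM (open diamonds). Ribosomal and parvalbumin genes lie right of 0 and slow fibre markers left of 0 on both scales, while the median of all 10225 genes moves to -0.68 and -0.53 in TPM.

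Genes of at least 10 TPM that spanned 4-fold or more in scaled counts numbered 101 of 2787 (3.62%). With 2 libraries compared, the number was 61 without WT-1, 60 without WT-2 and 30 without WT-3. In scaled counts WT-3 was the lowest library for 43 of the 101 (42.6%), WT-1 for 31 (30.7%) and WT-2 for 27 (26.7%). The shares over all detected genes by TMM were 36% for WT-3, 28% for WT-1 and 36% for WT-2. The lowest library in TPM was not counted for this set. The 15 named genes with the widest span were drawn from several tissues. *myha*, a myosin heavy chain gene, had 42.0, 26.7 and 0.39 TPM, a 100.7-fold span of scaled counts with partly shared reads, and *acta1b* had 332, 360 and 33.8 TPM, both low in WT-3. Low in WT-3 as well were *nexmifb* at 37.0, 26.8 and 0.50 TPM, the class I histocompatibility gene *mhc1uba* at 122, 107 and 9.07 TPM, *STMP1* and *ptgdsb.1*. *mhc2dab*, a histocompatibility gene of class II, also varied at 7.76, 20.2 and 2.36 TPM.

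Genes of other tissues made up several of the rest. The skin keratin *krt5* had 37.4, 0.95 and 12.97 TPM, lowest in WT-2. *bglap*, which encodes the bone protein osteocalcin, had 19.4, 82.6 and 7.04 TPM, but only 31, 148 and 12 counts. *lyz*, lysozyme of neutrophils and macrophages, had 3.26, 5.85 and 29.8 TPM. Each of these was high in a different library. *gstk2*, a glutathione transferase gene, was high in WT-2 alone at 5.95, 74.4 and 1.61 TPM, *syngr2a* was high in WT-1, and *spink4* was high in WT-2 on few counts. *pvalb1* and *pvalb2*, described above, completed the set.

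At the other end, 29 of 510 genes of at least 100 TPM had a CV under 10% in scaled counts. The named genes with the smallest CV were *rgcc*, *srl*, *jph1b*, *ndufs8a*, *hspb11*, *pam16*, the smaller row of *hbba1*, *mdh2*, *casq1b* and *cs*. Of these, *srl*, *jph1b* and *casq1b* belong to the sarcoplasmic reticulum and its junctions. *srl*, sarcalumenin, had 522, 515 and 550 scaled CPM but 127, 79.7 and 122 TPM, and *cs*, citrate synthase, had 751, 666 and 745 scaled CPM. Their TPM values were lower in WT-2 while their scaled counts were level.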

How the data were processed

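RNA of 3 WT libraries was poly(A)-selected, made into stranded libraries and sequenced in pairs per the labels. The authors deposited estimated counts per Ensembl gene (not normalized, 9.01 to 11.0% of values not whole) and TPM, their normalization for length and depth, whose columns summed to 986629 to 991241. The deposited length column ("other" unit) was used for 1 alternative. Their notes name fastp, HISAT2, StringTie and RSEM without roles or versions, and the genome build is not given in the sources used here. Deposited means, fold changes and p-values between groups were not used, nor was a second deposited table, which holds the other 2 groups. In TPM the length implied for genes of 200 to 299 bases was 14.5 to 15.0% of that listed. It was 25.9 to 27.2% at 300 to 399 bases, 44.0 to 45.1% at 400 to 499, 58.8 to 59.7% at 500 to 699 and 74.5 to 75.3% at 700 to 999. At 1000 to 1499 bases it was 85.2 to 86.0%, at 2500 to 4499 about 100%, and above that 70.8 to 72.1%. The 10 genes under 200 bases lay at 106 to 118%. Genes of 200 to 1499 bases, and those of 4500 bases or more, thus weigh more in TPM than their listed length gives. By counts per listed length, ribosomal protein genes held 12.3% (15.3% in TPM) and parvalbumins 6.60% (7.84%).

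Counts were rounded and scaled in R 4.3.3 with edgeR 4.0.16 (TMM factors 1.14, 0.813 and 1.08, a prior count of 2, a low-count filter that kept 12280 genes, common BCV, tested on simulated data) and with DESeq2 1.42.0 size factors as an alternative. Shares and pairs were computed in Python 3.11.15 with pandas. An a/b pair needed symbols and descriptions differing in that letter alone. The 32 lists were regular expressions on symbols, with 63 misfitting symbols removed after the members were seen. Members and lists were chosen with earlier results of these data known, and no test was made, since the 3 libraries form 1 group. Named genes were the 20 highest by mean TPM, the 3 highest of each list, the 15 leading pairs, 10 dominated and 10 balanced pairs, the 15 genes of widest span at 10 TPM or more and the 10 of smallest CV at 100 TPM or more (clone-derived names passed over), *bves* and the markers. Other genes in the text were chosen after their values were seen. A planned search of promoter motifs was not run, since no sequence was used here.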

Additional observations from a re-analysis of the deposited data

How the results depend on the processing

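No paired analysis was possible because the libraries form a single group. With 5 TPM as the mean needed, 4535 genes were detected in place of 10225. As a share of estimated counts the 20 leading genes held 45.3% (48.2% in TPM), mitochondrial genes 14.8% (22.9%), all lists together 70.3% (78.9%) and oxidative phosphorylation 17.9% (28.8%). Without mitochondrial genes in the total the 20 leading genes held 42.6% and the lists 72.6%. With counts per listed length, added after seeing the data (as was the spread by level in TPM), the lists held 72.7%. Dominated pairs numbered 146 by the difference of log2(TPM + 1), 616 from 1 TPM and 130 from 20 TPM, against 323. The BCV was 0.336 with total counts and 0.326 with no filter, against 0.288. Genes spanning 4-fold numbered 154 in TPM, 516 from 1 TPM and 19 from 50 TPM, against 101.

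Leaving out 1 library in turn gave 9813 to 10697 detected genes, 47.4 to 48.8% for the 20 leading genes, 20.8 to 24.6% for mitochondrial genes, 77.8 to 80.1% for the lists, 26.3 to 30.9% for oxidative phosphorylation, 323 to 374 dominated pairs, a BCV of 0.266 to 0.324 and 30 to 61 genes spanning 4-fold. The BCV was highest without WT-1, and the fewest genes spanned 4-fold without WT-3. Single lists moved by over 1 SD as a share of counts for 30 of 32 and per listed length for 19 of 32. With 3 libraries of pooled fish, the spread between single fish was not measured.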

Other observations

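Genes often used as references for qPCR in zebrafish differed in how level they were across the 3 libraries. In scaled counts *gapdh* had a CV of 7.94%, *tbp* 11.6%, *actb2* 13.5%, *b2m* 16.3% and *actb1* 20.1%. *eef1a1l1* at 32.3%, *hprt1* at 34.8%, *sdha* at 37.7% and *rpl13a* at 53.2% varied more, and *rpl13a* moved with the other ribosomal genes. The order differed in TPM, where *actb1* had a CV of 6.48%, *b2m* 9.53%, *gapdh* 16.9%, *tbp* 23.7% and *sdha* 39.0%. Their levels ran from 2.70 TPM for *tbp* to 16256 TPM for *gapdh*.

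Of 19 factors that muscle can secrete, 11 were detected. *sparc*, a matrix protein, led at 75.5, 61.4 and 87.2 TPM, and *metrnlb* had 51.5, 14.3 and 29.1 TPM. The myostatin gene *mstnb*, a restraint on muscle growth, had 7.15, 6.05 and 8.16 TPM, whereas *mstna*, *fndc5a* and *fndc5b* had 0 counts in all 3 libraries. Among the 5 glucose transporter genes measured, *slc2a1b* led at 14.5, 1.99 and 17.7 TPM, low in WT-2 where slow fibre genes were also low, and *slc2a12* followed at 4.24, 3.02 and 5.89 TPM. The lactate transporter *slc16a3* had 58.1, 27.7 and 86.3 TPM and *slc16a1b* 23.9, 3.90 and 27.0 TPM.

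Genes carrying only a clone-derived name or none were a small part of the RNA. There were 1457 of them at a mean of at least 1 TPM, and together they held 3.52% ± 0.125 of TPM.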
